A study of Caenorhabditis elegans with 36 samples.

Results

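Total RNA of second-stage (L2) larvae was compared with total RNA of first-stage (L1) larvae of Caenorhabditis elegans. The comparison used 7 of the 36 samples of the series: every L2 input (3) and every L1 input (4). An input is the total RNA of a whole-animal lysate, taken before an immunoprecipitation that is not the subject here. All animals, L2 and L1 alike, carried a single-copy integrated AIN-2::GFP transgene, and no animals without it were analysed here. AIN-2 belongs to the GW182 proteins, which carry out silencing by microRNAs. L2 larvae had spent 21 hours on HB101 bacteria at 20 °C, and L1 larvae 4 hours, after eggs had hatched overnight in buffer without food. The 2 groups therefore differ in stage, in time on food and in time since starvation, which cannot be told apart. Lots entered the study when more than 80% of the animals were at the intended stage, and each replicate was grown and harvested on its own. Of the 16378 named genes on the array, 15115 could be tested between L2 and L1.

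C. elegans larvae are enclosed in a cuticle, a layered collagen matrix that the epidermis secretes from its apical face. At each molt a new cuticle is built under the old one, and the old one is shed. The molt from L1 to L2 lies between the times sampled here. Collagen genes, proteases, lipocalins, zona pellucida proteins and hedgehog-related and patched-related genes are known to be transcribed in waves that recur with every molt, so their level in a population depends on where its animals stand in that cycle as well as on the stage. Newly fed L1 larvae also leave an arrest, restart growth and later resume divisions of blast cells and of the germ line.

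Each input was read in 1 dye channel of a spotted oligonucleotide array. Levels are log2 intensities after quantile normalization, on which 0 is an intensity of 1, close to the mean spot of an array. They compare samples for a gene and not genes with each other. Values by sample are given in the order of replicates 1, 2 and 3 for L2 and of replicates 2, 5, 10 and 11 for L1. L2 replicate 2 and L1 replicates 2 and 11 carried Cy3, the others Cy5. A value was called above background when it exceeded 3 times the noise of its array, which held for 57.4% to 70.7% of the spots of an L2 input and for 54.1% to 68.4% of the spots of an L1 input. Across genes, which are not independent replicates, inputs correlated with r of 0.909 to 0.921 within L2, of 0.879 to 0.959 within L1 and of 0.857 to 0.896 between an L2 and an L1 input. Marker lists of adults, sperm, early embryos and dauer larvae had 0 called members. In each of these 4 lists 3 members were above background in all 7 inputs, among them vit-3, vit-4 and vit-5 (adult), gsp-4 (sperm), end-3 (early embryo) and dct-9 and lea-1 (dauer). Above background in none of the 7 were 1 adult marker (vit-1), 5 of early embryos (pes-10, tbx-37, tbx-38, sdz-38 and vet-6), 2 of dauer larvae (col-40 and srh-100) and 0 of sperm. L1 replicates 5, 10 and 11 are titled "Tot" and the other L1 and L2 inputs "tot", and the labels do not say what this marks. Number of arrays and signal over background limit the precision of every value.

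Many more genes were called higher in L2 than lower. limma, fitted to the 18 inputs of all stages with dye as a term, called 255 of the 15115 named genes higher in L2 total RNA (1.69%) and 29 lower (0.192%), 1.88% in either direction, at a Benjamini-Hochberg adjusted p under 0.05. The call without adjustment, at p under 0.05, held 1772 named genes. The median difference was 3.33 on the log2 scale among the genes called higher and -3.01 among those called lower, against 0.08 over all named genes. A total of 86 genes rose by more than 4 on this scale and 42 by more than 5. Higher calls made up 89.8% of the calls after quantile normalization, 70.8% on the deposited scale and 96.6% with arrays centred on their medians, so the balance of the 2 directions depended on the scaling. The values of L2 and L1 did not overlap for 254 of the 255 genes called higher, where 13.5% of all named genes lay wholly higher in L2, and for 29 of the 29 called lower, where 8.12% lay wholly lower. The calls were made on these same values, so this separation is a description and no further support. As these are extracts of whole animals, more cells of a type and more RNA per cell cannot be told apart.

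Every gene called in this comparison kept its direction when an input was left out, but the number of calls depended on the inputs. Over all 20062 features, named genes and unnamed probes together, limma called 290 higher and 38 lower. Without L2 replicate 1, 166 of the 290 remained called and 17 features were called lower. Without L2 replicate 2, 183 were called higher and 11 lower, and without L2 replicate 3, 138 and 25. It called 238 and 30 without L1 replicate 2, 179 and 7 without L1 replicate 5, 195 and 5 without L1 replicate 10, and 209 and 15 without L1 replicate 11. Between 136 and 218 of the 290 higher features and between 5 and 23 of the 38 lower features remained called. Within Cy5, with L2 replicates 1 and 3 against L1 replicates 5 and 10, 699 features were called higher and 333 lower. Within Cy3, with L2 replicate 2 against L1 replicates 2 and 11, 67 were called higher and 21 lower. A fit to the 7 L2 and L1 inputs alone called 474 higher and 198 lower.

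**Figure D1:**
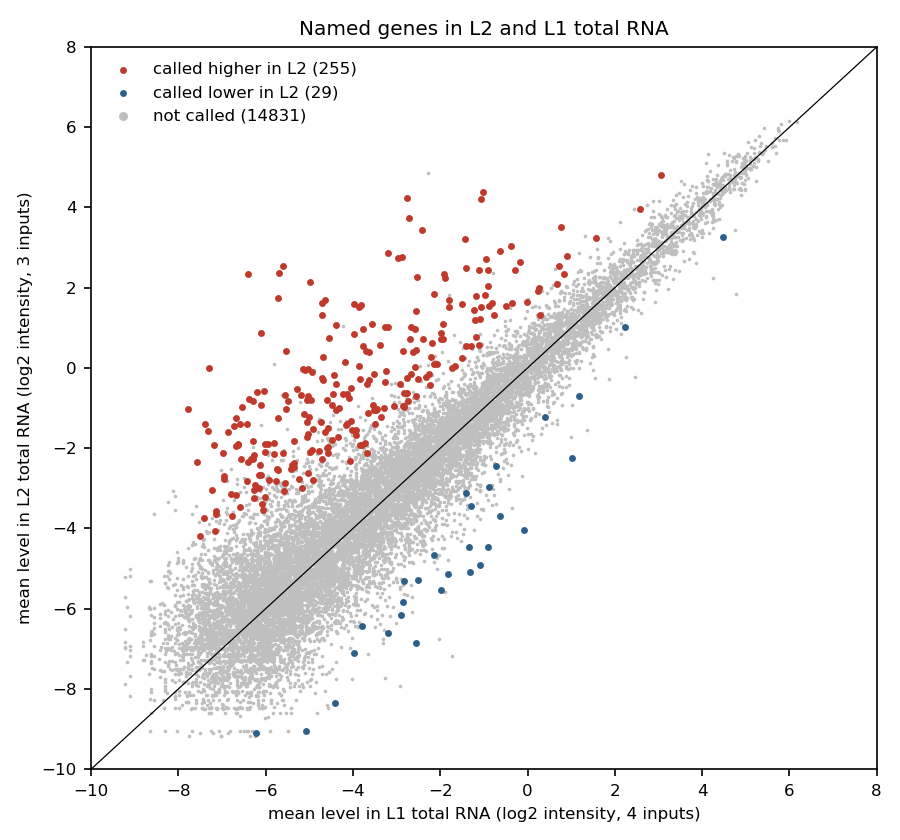
Mean level of each tested named gene in L2 total RNA (vertical axis, log2 intensity, mean of 3 inputs) against its mean level in L1 total RNA (horizontal axis, log2 intensity, mean of 4 inputs). Red points are the 255 genes called higher in L2, blue points the 29 called lower and grey points all others. The red points lie above the line of equal levels, and 254 of the 255 rose by more than 2-fold.

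Most genes that rose were dim in L1 and clear in L2. Of the 255, 250 were above background in every L2 input, but 114 were so in 1 to 3 L1 inputs, 28 in none and the others in every L1 input. Among the 29 genes that fell, 25 were above background in every L1 input, and 10 were so in every L2 input, 13 in 1 or 2 and 6 in none. Where a gene was above background throughout 1 stage and in no input of the other, its difference is only a lower bound and is given as such. The L1 inputs also differed among themselves in these genes. Of the 208 risers with a value in every L1 input, 110 were lowest in L1 replicate 2 (52.9%), which was the lowest of the 4 for 40.2% of all named genes, and 74 were highest in L1 replicate 10 (35.6%), against 19.3% of all named genes. In the L2 inputs, replicate 3 was the highest for 190 of 251 risers (75.7%, against 42.0% of all named genes) and replicate 2 the lowest for 199 (79.3%, against 48.6%).

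The collagens that shape the body stood out first. Of the 18 genes of the list of body shape and furrow collagens, 17 were tested, and 8 rose in L2 and 0 fell. The list median was a difference of 3.59. Furrow collagens line the circumferential furrows of the cuticle, and their loss makes worms short and fat. dpy-8 had log2 intensities of 1.78, 1.3 and 2.15 in the L2 inputs, against -6.60, -5.43, -5.95 and -4.86 in the L1 inputs. The groups were far apart, and 2 of the 4 L1 inputs were above background. The fitted difference was 7.44 ± 0.57 (SE), with adjusted p = 6.68e-07. dpy-9 reached 2.02, 1.98 and 2.46 in L2, against -5.69, -4.46, -4.77 and -4.98 in L1, a difference of 7.09 ± 0.54 (adjusted p = 6.68e-07). It too was above background in 2 of the 4 L1 inputs. dpy-2 stood at 2.28, 1.67 and 2.82 in L2, against -4.70, -2.19, -1.61 and -1.63 in L1, and dpy-7 at -0.34, -0.90 and 0.07 in L2, against -3.64, -5.72 and -3.84 in the L1 inputs with a value. These furrow collagens rose by 4.76 ± 0.67 and 4.11 ± 0.62. A further furrow collagen, dpy-3, differed by 4.94 ± 1.41 with adjusted p = 0.109, although its L2 values of -1.16 to -0.38 all lay above its L1 values of -5.96 to -5.25.

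Collagens of the annuli, the ridges between furrows, and of the helical cuticle architecture rose as well. dpy-5 had 3.01, 2.06 and 3.15 in L2, against -2.04, -3.41, -3.39 and -3.0 in L1, and rose by 5.68 ± 0.60 (adjusted p = 1.85e-05). dpy-13 had 2.53, 1.87 and 2.89 in L2, against -0.98, -1.59, -1.24 and 0.15 in L1, and rose by 3.39 ± 0.50. Both genes were above background in every input, so their folds of 51.4 and 10.4 are measured on both sides. sqt-1, a collagen whose mutations can make worms roll, had 3.94, 3.02 and 4.26 in L2, against -6.31, -1.80, -1.91 and -0.84 in L1. sqt-3, a collagen needed to hold the elongated body shape, had 4.35, 3.68 and 5.10 in L2, against -4.35, -0.75, 2.14 and -1.17 in L1. The L1 inputs of these 2 genes were spread over more than 5 log2 units while the L2 inputs stayed together, and the groups did not overlap. The differences were 6.47 ± 0.99 and 5.27 ± 1.17 (adjusted p = 0.000979 and 0.0236). The call of sqt-3 held in 1 of the 7 fits that left out an input, the one without L1 replicate 10, and its adjusted p reached 0.109 in the others. That of sqt-1 held in all 7. rol-6, the partner of sqt-1 in the cuticle, stood at 3.29 to 3.68 in L2 and 2.64 to 3.18 in L1 and differed by 0.46 ± 0.57 (adjusted p = 0.849). lon-3, a collagen that limits body length, could not be tested because 1 L1 input alone had a value. It was above background in the 3 L2 inputs and in no L1 input, and was at least 52.7-fold higher in L2.

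The remaining members of this list were not called. sqt-2 differed by 3.59 ± 1.01 (adjusted p = 0.0991), dpy-4 by 2.97 ± 1.04 and dpy-17 by 1.00 ± 0.99. bli-1, bli-2 and bli-6, known from the adult cuticle and its blister phenotype, were each above background in 2 L2 inputs, and in 4, 0 and 2 L1 inputs. bli-1 and bli-6 had differences of -1.14 and 0.29. dpy-14 differed by 0.03 ± 0.83 and was above background in 2 L2 and 2 L1 inputs. Between 7 and 8 of the list's members were called in the fits that left out an input.

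Among the numbered collagens, 14 tested genes rose, 115 were not called and 0 fell, and the median difference was 0.53. col-41 had 2.44, 1.73 and 2.84 in L2, against -5.87, -7.39, -6.43 and -5.94 in L1. No L1 input was above background, and col-41 was at least 196-fold higher in L2 (adjusted p = 3.25e-05). col-90 had 2.55, 1.92 and 3.15 in L2, against -6.26, -5.55 and -4.98 in the L1 inputs with a value, of which 1 was above background, and rose by 8.14 ± 0.66 (adjusted p = 1.96e-06). col-17 was bright in L2, at 4.02, 3.57 and 5.01, and measurable in every L1 input, at -1.73, -1.46, -0.90 and -0.15. It rose by 5.30 ± 0.46, or 39.5-fold. col-128 and col-111, each with 1 L1 input above background, rose by 5.43 ± 0.91 and 5.03 ± 0.73, and the other 9 called collagens by 1.79 (col-38) to 4.80 (col-146). Between 10 and 13 numbered collagens were called in the fits that left out an input. Collagens with near-identical copies can share signal on long oligonucleotides, so a value may belong to more than 1 gene.

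Genes for collagen folding and processing shifted less. 1 of 25 tested genes rose (4%, beside 1.69% of all named genes) and 0 fell, with a list median of 0.86. The riser was cyn-6, a cyclophilin, at 2.89, 2.40 and 2.83 in L2 and -1.19, -0.66, -0.97 and -0.99 in L1 (difference 3.56 ± 0.41, adjusted p = 4.42e-05). The prolyl 4-hydroxylase subunits differed by 2.05 ± 0.67 (phy-2), 1.03 ± 0.58 (dpy-18) and 0.97 ± 0.67 (phy-4) and were not called. The thioredoxin-like dpy-11 differed by 1.39 ± 0.41 (adjusted p = 0.115). The astacin dpy-31, which cleaves the C-terminal propeptide of collagens, differed by 1.52 ± 0.53 (adjusted p = 0.233). Of all 31 astacin metalloproteases tested, nas-33 and nas-11 rose (6.45%), by 3.04 ± 0.76 and 2.35 ± 0.58, and 0 fell. Both calls were narrow and held in 1 of the 7 fits that left out an input, the one without L2 replicate 2 for nas-33 and without L1 replicate 2 for nas-11, with adjusted p of up to 0.215 and 0.369 in the others.

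**Figure D2:**
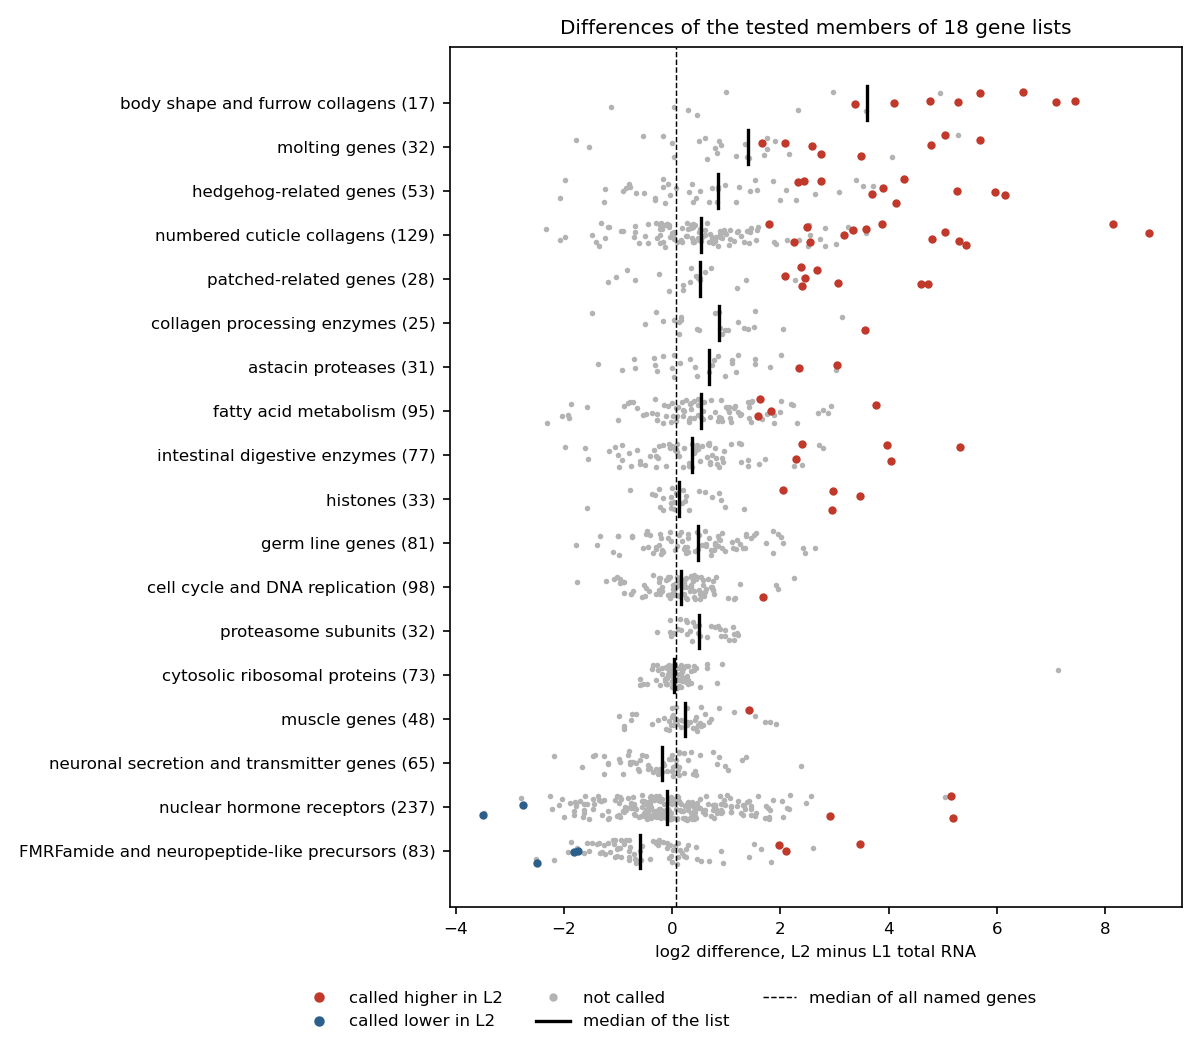
Log2 difference (L2 minus L1 total RNA, horizontal axis) of each tested member of 18 of the 50 gene lists, with the number tested in brackets. Red points were called higher in L2, blue points lower and grey points were not called, the thick bar is the median of the list, and the dashed line is the median of all named genes (0.08). The fitted differences of the called collagens, molting, hedgehog-related and patched-related genes reach from 1.67 to 8.80 (col-41, for which the text gives a bound), while ribosomal proteins, proteasome subunits and germ line genes have no called member.

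The matrix that precedes the cuticle and the genes that act at the molt rose in part. Of 32 tested molting genes, 8 rose and 0 fell, with a list median of 1.40. noah-2, a zona pellucida domain protein of the apical matrix, had 2.67, 2.50 and 3.15 in L2, against -4.70, -2.75, -2.15 and -1.90 in L1, a difference of 5.68 ± 1.28 (adjusted p = 0.0269). fbn-1, related to fibrillin, had -1.66, -1.13 and -1.45 in L2, against -9.12, -5.04 and -5.17 in the L1 inputs with a value. Of these, 2 were above background, and fbn-1 rose by 5.03 ± 1.17. acn-1, an angiotensin-converting-enzyme-like protein without the catalytic residues, had -0.42, -0.12 and 0.19 in L2, against -6.31, -5.30, -4.36 and -3.73 in L1. It rose by 4.79 ± 0.54 with adjusted p = 3.75e-05. The mucin-like let-653 rose by 3.48 ± 0.71, the hedgehog-related qua-1 by 2.74 ± 0.49, the leucine-rich repeat proteins egg-6 and sym-1 by 2.59 ± 0.58 and 1.67 ± 0.38, and che-14, a Dispatched-like protein of apical secretion, by 2.08 ± 0.49. L1 replicate 2 was the lowest L1 input for 7 of the 8, all but che-14. The number of molting genes called was more dependent on single inputs than that of the collagens: it was 2 without L2 replicate 1, 2 without L2 replicate 3 and 5 without any 1 of the other inputs. The calls of acn-1 and qua-1 held in all 7 of these fits, that of let-653 in 4, those of fbn-1 in 3 and of che-14 in 2, and those of noah-2 and sym-1 in 1. egg-6 was called in 4 of the 5 fits that could test it.

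Other molting genes were not called. The protease inhibitor gene mlt-11 differed by 5.28 ± 1.72 (adjusted p = 0.192) with L2 values of 0.69 to 1.25 and L1 values of -5.08 to -3.58, so its groups lay apart. mlt-10 differed by 1.34 ± 0.42 (adjusted p = 0.155), let-4 by 1.74 ± 0.45 (adjusted p = 0.0608), the astacin protease gene nas-37 by 1.19 ± 0.41 (adjusted p = 0.224) and nas-36 was above background in 1 L2 input and in no L1 input. The peroxidase gene mlt-7 differed by -1.77 ± 0.52 (adjusted p = 0.126), a value set by L2 replicate 2 at -3.44 beside 0.03 and 0.15 in the other L2 inputs and 0.03 to 1.05 in L1. The nuclear receptor nhr-25 was level, at -0.13 to 0.18 in L2 and -0.10 to 0.70 in L1 (difference -0.16 ± 0.39).

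Hedgehog-related genes encode secreted proteins that nematodes have in place of a canonical hedgehog signal, and many are made by the epidermis. Of 53 tested, 10 rose and 0 fell, with a median difference of 0.85. wrt-10, of the warthog family, had 2.80, 2.55 and 3.24 in L2, against -3.37, -3.80, -3.16 and -2.48 in L1, all above background, and rose by 6.15 ± 0.63, or 71.1-fold (adjusted p = 1.45e-05). wrt-2 had 1.24, 0.83 and 1.92 in L2, against -6.31, -4.86, -2.64 and -4.98 in L1, with 2 L1 inputs above background. It rose by 5.96 ± 0.57. wrt-1 rose by 4.28 ± 0.46. Among the ground-like genes, grl-7 had 1.71, 0.86 and 2.13 in L2, against -5.11, -3.82, -1.95 and -4.37 in L1 (difference 5.26 ± 0.54, adjusted p = 1.51e-05). grl-5 rose by 4.12 ± 0.57. The other 5, which include qua-1 and the groundhog genes grd-1 and grd-14, rose by 2.32 (hog-1) to 3.89 (grd-1). grl-22 went the other way by sign, with a difference of -1.98 ± 0.75 (adjusted p = 0.298) and L2 replicate 2 at -4.45, beside -1.17 and 0.22 in the other L2 inputs and -0.06 to 0.20 in L1. Between 8 and 10 hedgehog-related genes were called in the fits that left out an input.

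Patched-related proteins carry a sterol-sensing domain and are needed in apical secretion and molting. Of 28 tested genes, 8 rose and 0 fell, with a median difference of 0.51. ptr-11 had 0.40, 0.88 and 0.87 in L2, against -2.80, -2.18, -1.65 and -2.97 in L1, and rose by 3.06 ± 0.33 (adjusted p = 2.17e-05). ptr-4 had 1.12, 0.52 and 1.92 in L2, against -1.06, -1.09, -1.32 and -1.34 in L1, and rose by 2.38 ± 0.37. Both had 7 inputs above background. ptr-10 was above background in the 3 L2 inputs and in no L1 input and was at least 10.1-fold higher in L2 (adjusted p = 0.00268). ptr-16 and ptr-1 rose by 4.59 ± 0.74 and 2.67 ± 0.64, with ptr-16 above background in 2 L1 inputs. ptr-6 rose by 2.44 ± 0.55, with L2 replicate 2 at 0.71 and the other L2 inputs at -1.82 and -1.99, and by 1.39 without that input. ptr-6 was called in 2 of the 7 fits that left out an input, those without L2 replicate 1 or L2 replicate 3, and ptr-1 in 2, those without L1 replicate 5 or L1 replicate 10. ptr-23 had 1.77 to 2.13 in L2 and 1.78 to 2.12 in L1, a difference of -0.07 ± 0.28. Without 1 input, 4 (L1 replicate 5) to 6 (L1 replicate 10 or L2 replicate 1) patched-related genes were called. Together, the 7 lists of collagens, collagen processing, molting, hedgehog-related, patched-related and astacin genes held 310 tested genes. Of these, 49 rose (15.8%), beside 1.69% of all named genes, and 0 fell, beside 0.192%. These lists were chosen with earlier results of these data known.

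**Figure D3:**
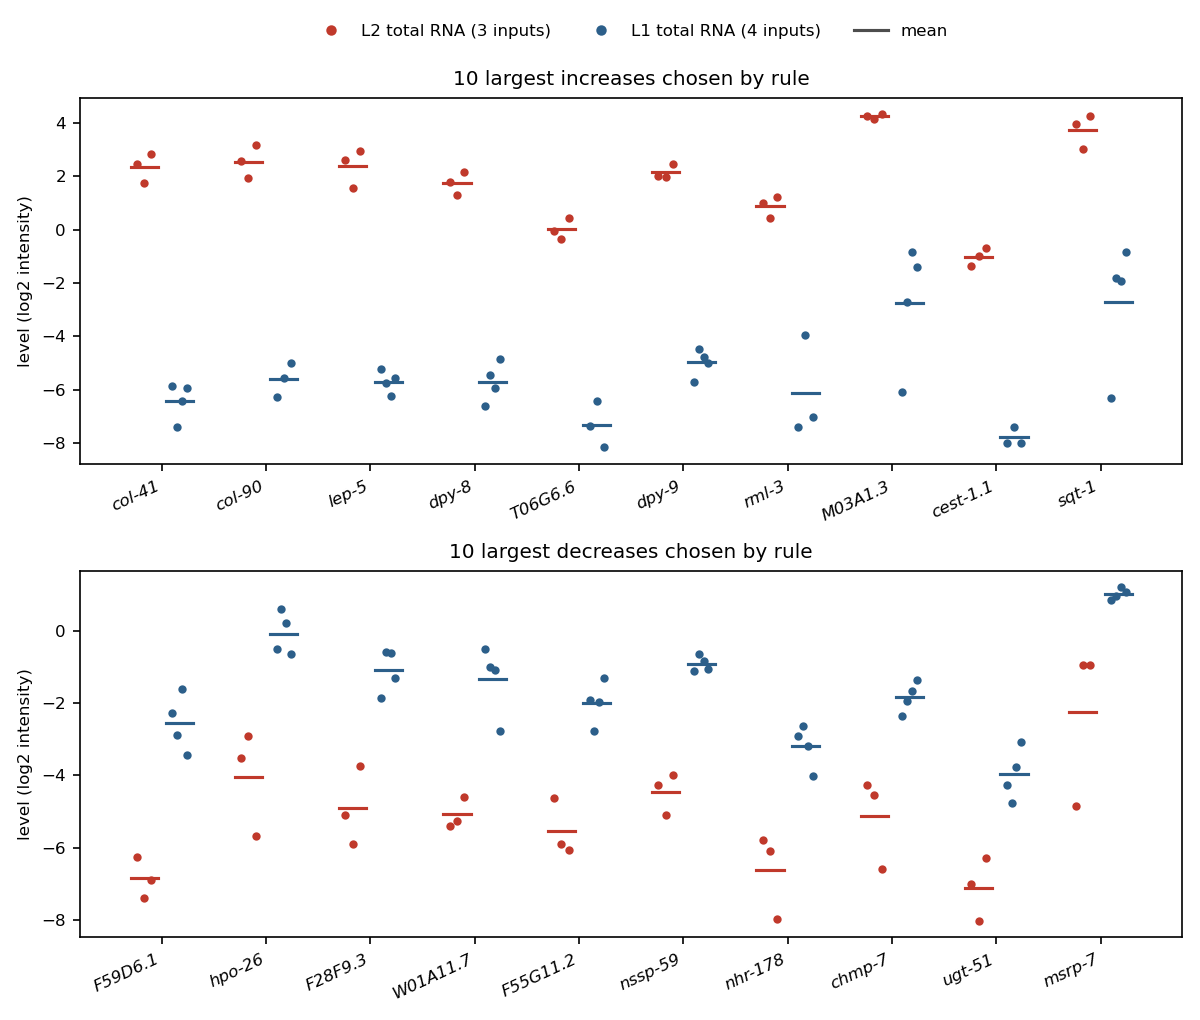
Level by input (vertical axis, log2 intensity) of the 10 genes with the largest increases and the 10 with the largest decreases among those chosen by rule. Red points are the 3 L2 inputs and blue points the 4 L1 inputs (missing where the value was 0 or less), and the short lines are means. The rule took genes whose groups do not overlap. M03A1.3 and sqt-1 have 1 low L1 input each.

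Several of the largest increases lie outside the gene lists. M03A1.3, an uncharacterised gene, had 4.26, 4.15 and 4.32 in L2, against -6.08, -2.71, -0.83 and -1.41 in L1 (difference 6.98 ± 0.86, adjusted p = 9.81e-05). T06G6.6, also uncharacterised, had -0.04, -0.34 and 0.43 in L2 and was below background in every L1 input, at least 39.2-fold higher in L2 (adjusted p = 7.88e-07). cest-1.1, a carboxylesterase gene, had -1.37, -1.0 and -0.70 in L2 and was at least 19.1-fold higher in L2 (adjusted p = 1.6e-05). rml-3 had 0.98, 0.44 and 1.22 in L2, against -7.39, -3.93 and -7.02 in the L1 inputs with a value, of which 1 was above background, and rose by 6.99 ± 0.66. In all, 114 named genes were above background in every L2 input and in no L1 input, and 22 in every L1 input and no L2 input. These counts are not matched, since the limit differed by array. On the deposited scale it was 0.0384 and 0.0559 in L1 replicates 2 and 11, 0.00871 and 0.00932 in L1 replicates 5 and 10, and 0.0102 to 0.0248 in L2. Bounds also reached down to 0.741-fold (T03F6.6) and 0.676-fold (enu-3.6), which set no increase. Of the 114, 103 were tested and 27 called. Besides col-41, lon-3 and T06G6.6, the largest bounds belonged to the nuclear receptor nhr-245 (at least 20.5-fold) and to idpp-1 (at least 19.7-fold), both called.

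Heterochronic genes set the order of larval cell fates, and the passage from L1 to L2 is one of the switches they control. Of 11 tested, 1 rose (9.09%, beside 1.69% of all named genes) and 0 fell. The riser was lep-5, annotated as a long non-coding RNA, which is known to act with the Makorin protein LEP-2 in developmental timing. It had 2.60, 1.55 and 2.95 in L2, against -5.23, -5.74, -6.25 and -5.55 in L1, with 1 L1 input above background, and rose by 8.04 ± 0.52 (adjusted p = 1.34e-07). lep-2 itself differed by 1.75 ± 1.12 and was above background in 2 L2 and 2 L1 inputs. hbl-1, a hunchback-like repressor of later fates, had -0.18, -0.72 and -0.08 in L2 and -0.50, -0.29, -0.66 and -1.06 in L1, a difference of 0.27 ± 0.36 (adjusted p = 0.869). The period homologue lin-42, which oscillates with the molts, differed by 1.38 ± 0.49 (adjusted p = 0.246), with L2 values of -2.65 to -2.24 above L1 values of -4.07 to -3.27. lin-46 differed by 1.17 ± 0.67, blmp-1 by 0.41 ± 0.72, lin-29 by 0.31 ± 0.33, mab-10 by -0.30 ± 0.59 and sea-2 by -0.49 ± 0.52. lin-66 differed by 2.84 ± 1.21, with L2 replicate 2 at 3.78 beside -4.74 and -4.75 in the other L2 inputs and -4.79 to -4.18 in L1. Other genes of this pathway are not analysed here.

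Of 19 tested genes on the list of seam cell and epidermal regulators, 3 rose (15.8%, beside 1.69% of all named genes) and 0 fell. They were nhr-73, wrt-2 and che-14, of which wrt-2 and che-14 were already counted in the lists above. The list median was 0.32. nhr-73, a nuclear receptor, had -2.19, -1.99 and -0.60 in L2, against -7.98, -5.76, -6.10 and -7.59 in L1, with 1 L1 input above background. It rose by 5.19 ± 0.71 (adjusted p = 0.000421). The junction gene dlg-1 had 4.78 to 4.90 in L2 and 4.45 to 5.42 in L1, and the Runx factor gene rnt-1 had -1.01 to -0.70 in L2 and -1.31 to -0.53 in L1. Among 237 tested nuclear hormone receptors, nhr-73, nhr-245 and nhr-244 rose (1.27%, beside 1.69% of all named genes), so the share of receptors that rose was near that of all genes. nhr-178 and nhr-153 fell, where 0.192% of all named genes did. nhr-178 was above background in every L1 input and in no L2 input and was at least 4.36-fold lower in L2 (adjusted p = 0.0236). nhr-153 fell by 2.75 ± 0.66 on the log2 scale (adjusted p = 0.0437), a call lost in each of the 7 fits that left out an input, with adjusted p of up to 0.407. The call of nhr-178 held in 3 of them. The median of the receptors was -0.09. The homeobox genes (75 tested), Wnt (18), Notch (26), TGF-beta (16) and insulin and TOR signalling genes (16) had 0 called members.

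FMRFamide and neuropeptide-like precursors were the list with the most genes that fell. Of 83 tested, 3 fell, beside 0.192% of all named genes, and 3 rose (3.61%, beside 1.69%). The median difference was -0.59, against 0.08 over all named genes, and 57 of the 83 were lower by sign. The size of this shift depended on the scaling: the list median was -0.95 with the values as deposited and -0.10 with centred arrays, and relative to the median of all named genes it was -0.62 in both, beside -0.67 with quantile normalization. The calls followed the scaling, with 1 higher and 5 lower as deposited, and 4 higher and 0 lower with centred arrays. The lower calls were narrow: of the 3, 1 or 0 were left when any 1 input was left out. nlp-49 had -0.68, -0.77 and -0.69 in L2, against 1.29, 1.02, 1.25 and 1.13 in L1, tight groups that differed by -1.82 ± 0.39 (adjusted p = 0.0182). nlp-7 had -4.01, -4.96 and -5.03 in L2, against -1.99, -2.74, -1.93 and -1.94 in L1, and nlp-15 had -2.94, -3.41 and -3.01 in L2, against -1.03, -1.54, -1.41 and -1.71 in L1. They fell by 2.50 ± 0.60 and 1.74 ± 0.43 on the log2 scale (adjusted p = 0.0408 and 0.0477), and neither was called in any fit that left out an input, with adjusted p of up to 0.239 and 0.225. The 3 that rose do not all act in neurons. nlp-31 and nlp-30 belong to a cluster of antimicrobial peptide genes of the epidermis and rose by 1.98 ± 0.33 and 2.10 ± 0.45, and nlp-39 rose by 3.47 ± 0.72. nlp-31 was called in all 7 fits that left out an input, and nlp-30 and nlp-39 were called in 3 each. Marker genes of neurons had a median of -0.24 with 0 of 5 called, and their summed intensity was 6.86 to 10.8 in L2 and 9.26 to 12.2 in L1. Their part in the lower neuropeptide levels was not tested.

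**Figure D4:**
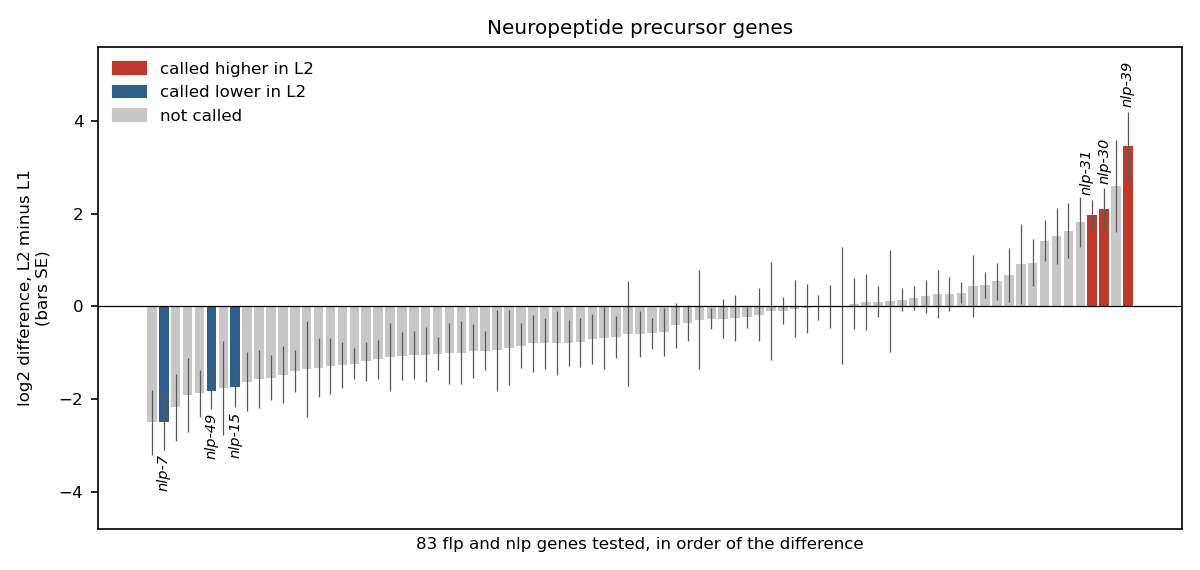
Log2 difference (L2 minus L1 total RNA, vertical axis, with the SE of the fit) of the 83 tested neuropeptide precursor genes, ordered by size. Red bars are the 3 genes called higher in L2 and blue bars the 3 called lower. 57 of the 83 bars lie below 0, and 4 of the 5 most negative are not called.

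Insulin-like peptides, which regulate growth and arrest in the L1 stage, had 1 riser among 23 tested genes (4.35%, beside 1.69% of all named genes). ins-33 had 1.84, 1.66 and 1.29 in L2, against -4.66, -4.81 and -2.48 in the L1 inputs with a value, and rose by 5.58 ± 0.97 (adjusted p = 0.00411). ins-4 and ins-35 had differences of 2.34 ± 0.66 (adjusted p = 0.101) and 1.42 ± 0.50 (adjusted p = 0.246). daf-28, ins-1 and ins-26 had differences of -0.94 ± 0.58, -1.36 ± 0.64 and -1.33 ± 0.66, none of them called. For ins-26 the L2 values of -3.01 to -3.0 all lay below the L1 values of -1.78 to -1.33. A list of targets of the starvation-activated factor DAF-16 and related stress genes, drawn by gene symbol, held 41 tested genes. Of these, fmo-4 alone rose (2.44%, near the 1.69% of all named genes), and 0 fell. This flavin monooxygenase gene had 1.97, 1.61 and 2.55 in L2, against -1.33, -1.44, -0.79 and -0.08 in L1 (difference 2.98 ± 0.43, adjusted p = 0.000531).

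Some genes on the lists of digestive enzymes and of fatty acid metabolism were called higher in L2. None was called lower, but only 0.192% of all named genes were. Among 77 tested genes on the list of intestinal digestive enzymes, 5 rose (6.49%, beside 1.69% of all named genes). This list was drawn by gene symbol, and the tissue and role of its members were not tested. The saposin-like spp-13 rose by 5.32 ± 0.66, and its egg mean of -1.05 lay near its L2 mean of -0.82. The lysozymes lys-4, lys-5 and ilys-6 rose by 4.03 ± 0.91, 2.40 ± 0.57 and 2.30 ± 0.56, and the cathepsin cpz-1 by 3.96 ± 0.77. cpz-1 had 0.62, -0.59 and 1.18 in L2, against -3.48, -3.65, -3.76 and -3.63 in L1. It was above background in every input, but spp-13 in 2 L1 inputs. The call of spp-13 held in all 7 fits that left out an input and that of cpz-1 in 6, that of lys-4 in 2, and those of lys-5 and ilys-6 in 0. Among 95 genes of fatty acid metabolism, 4 rose (4.21%). The acyl-CoA dehydrogenase acdh-8 rose by 3.77 ± 0.66, the peroxisomal genes acox-3 and dhs-28 by 1.82 ± 0.42 and 1.59 ± 0.33, and the enoyl-CoA hydratase ech-6 by 1.63 ± 0.35. acdh-8 was above background in 2 L1 inputs. dhs-28 had 0.72, 0.22 and 0.73 in L2, against -1.03, -0.98, -1.04 and -1.44 in L1. acdh-8 alone among these 4 was called in all 7 fits that left out an input, with 1 of the 4 called without L1 replicate 10 or L2 replicate 3. The median was 0.36 over the digestive genes and 0.54 over the genes of fatty acid metabolism. Intestinal markers had 0 of 7 called, and their summed intensity of 62.8 to 71.5 in L2 overlapped that of 38.7 to 70.1 in L1. Body wall muscle markers summed to 63.9 to 91.1 in L2 and 41.7 to 63.7 in L1, with tnt-2, a troponin T gene, called (difference 1.42 ± 0.34), a call that held in 1 of the 7 fits that left out an input, the one without L2 replicate 2. tnt-2 was also the 1 call among 48 muscle genes (2.08%, near the 1.69% of all named genes).

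Genes of growth and of cell division gave few calls outside the histones. The 73 cytosolic ribosomal protein genes had a median of 0.04 and 0 calls. One of them, rpl-41.1, differed by 7.13 ± 2.66 (adjusted p = 0.285). Its L2 inputs stood at 4.59 to 5.03, its L1 replicate 2 at 4.57 and the other L1 inputs at -4.74 to -4.21. The 32 proteasome genes had a median of 0.49 and 0 calls. 28 of them were higher by sign, and 15 lay wholly higher in L2, where 13.5% of all named genes did. The 29 genes of ribosome biogenesis had a median of -0.51 and 0 calls. 23 of them were lower by sign, and 8 lay wholly lower in L2, where 8.12% of all named genes did. Of 98 genes of the cell cycle and DNA replication, cdc-48.2 rose, by 1.67 ± 0.32, and 0 fell. This was 1.02%, beside 1.69% of all named genes. pcn-1, the replication clamp, had 4.00 to 4.02 in L2 and 3.54 to 4.23 in L1. cyd-1, cyclin D, had 0.60 to 1.1 in L2 and 1.18 to 1.45 in L1 (difference -0.51 ± 0.37, adjusted p = 0.687). Of 33 histone genes, 4 rose (12.1%, beside 1.69% of all named genes), but the list median was 0.12 and 12 were lower by sign. The linker histone hil-4 rose by 2.04 ± 0.39, and his-68, his-45 and his-64 by 2.95 ± 0.32, 2.97 ± 0.43 and 3.46 ± 0.40. These were the 3 calls among 26 tested his genes, whose median was 0.1. Core histone genes come in near-identical copies, so the signal of one cannot be told from that of its copies. The 81 germ line genes had a median of 0.47 and 0 calls. glh-1, a germ granule helicase, had 0.20 to 1.08 in L2 and -0.63 to 0.50 in L1, and pgl-1 had -1.07 to -0.46 in L2 and -2.08 to -0.81 in L1. The summed intensity of 8 germ line markers was 2.95 to 4.59 in L2 and 1.89 to 3.28 in L1. Genes of the microRNA and Argonaute pathways (55 tested) had a median of 0.15 and 0 calls.

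The 29 genes that fell included 6 members of the 50 lists: the 3 neuropeptide precursors, the 2 nuclear receptors and ugt-51. F59D6.1 had -6.26, -7.39 and -6.90 in L2, against -2.27, -2.89, -1.62 and -3.44 in L1. It was below background in every L2 input and at least 6.79-fold lower in L2 (adjusted p = 0.00146). W01A11.7 had -5.40, -5.25 and -4.60 in L2, against -0.50, -0.99, -1.07 and -2.77 in L1, a difference of -3.80 ± 0.62. hpo-26 stood at -5.68 to -2.90 in L2 and at -0.64 to 0.61 in L1, a difference of -3.88 ± 0.91. F28F9.3 stood at -5.90 to -3.74 in L2 and at -1.87 to -0.58 in L1, and nssp-59 at -5.10 to -3.99 in L2 and at -1.1 to -0.64 in L1, with differences of -3.88 ± 0.77 and -3.51 ± 0.80. That the groups of these 3 did not overlap was a condition of the rule that named them. chmp-7, a component of the ESCRT machinery, fell by 3.31 ± 0.59 and F55G11.2 by 3.58 ± 0.72 on the log2 scale. ugt-51, a glucuronosyltransferase gene, was below background in every L2 input and at least 2.55-fold lower in L2. msrp-7 had -4.85, -0.94 and -0.95 in L2, against 0.85, 0.96, 1.21 and 1.08 in L1. Every L2 input lay below every L1 input, again a condition of that rule. The fitted difference of -3.16 ± 0.73 was -1.97 without L2 replicate 1. msrp-7 was called in 3 of the 7 fits that left out an input, those without L1 replicate 2, L2 replicate 2 or L2 replicate 3. F59D6.1, W01A11.7 and chmp-7 were called in all 7 fits that left out an input, F28F9.3 in 5, F55G11.2 and ugt-51 in 3, and hpo-26 and nssp-59 in 1. Among genes above background in every L1 input and no L2 input, T27E4.7, C37C3.12 and the tubulin gene tbb-6 were at least 12.1-fold, 4.18-fold and 4.01-fold lower in L2 and were not called (adjusted p = 0.21, 0.0575 and 0.153).

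Of 7 pharyngeal markers, 0 were called and 6 were lower by sign, with a median difference of -0.66. Their summed intensity was 32.7 to 34.1 in L2, wholly below 39.7 to 50.4 in L1. ceh-22 was the exception, with a difference of 0.32 ± 0.47. The 6 epidermal markers had a median of 1.52, and dpy-7, che-14 and wrt-2 among them were called. Their summed intensity was 42.7 to 44 in L2 and 30.2 to 50.7 in L1, most of it from dlg-1, which averaged 4.85 in both stages. Such sums add intensities on the linear scale and so follow the brightest markers. These were asp-1 and act-5 in the intestine, mlc-2 and unc-54 in muscle, egl-21 in neurons and myo-5 in the pharynx. The part of tissue proportions in the collagen and matrix genes was not tested.

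The other stages place the L2 and L1 levels in the developmental course. They shared the fit but not the comparison. Of the 255 genes that rose, 250 had an L3 mean nearer to L2 than to L1, and 214 had an L4 mean nearer to L2. Eggs divided them: in 173 the egg mean lay nearer to L2, and in 82 nearer to L1. Among all tested named genes with a higher mean in L2 than in L1, 49.3% had an L3 mean, 50.1% an L4 mean and 50.7% an egg mean nearer to L2. The risers were chosen for their L2 and L1 levels, from which nearness is measured, so these counts are a description. Patched-related genes (7 of 8), hedgehog-related genes (8 of 10) and molting genes (7 of 8) were mostly of the first kind, whereas 5 of 14 numbered collagens and 3 of 8 body shape collagens were. M03A1.3, sqt-3 and lpr-3 averaged 4.61, 4.20 and 2.30 in eggs, beside -2.76, -1.03 and -2.41 in L1 and 4.24, 4.38 and 3.43 in L2. col-90, dpy-8, col-41 and lep-5 averaged -6.83, -5.66, -4.12 and -3.90 in eggs. Their L2 level of 1.74 to 2.54 was reached after the L1 sample at 4 hours on food. Later times within L1 were not sampled. In L4, col-41 averaged -1.11 and col-90 0.10, lower than in L2 but above their L1 means of -6.40 and -5.60. lep-5 stayed at 3.29. Of the 29 genes that fell, 18 had an egg mean nearer to L2 and 20 an L3 mean nearer to L2, beside 53.7% and 64.9% of all tested named genes with a lower mean in L2.

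**Figure D5:**
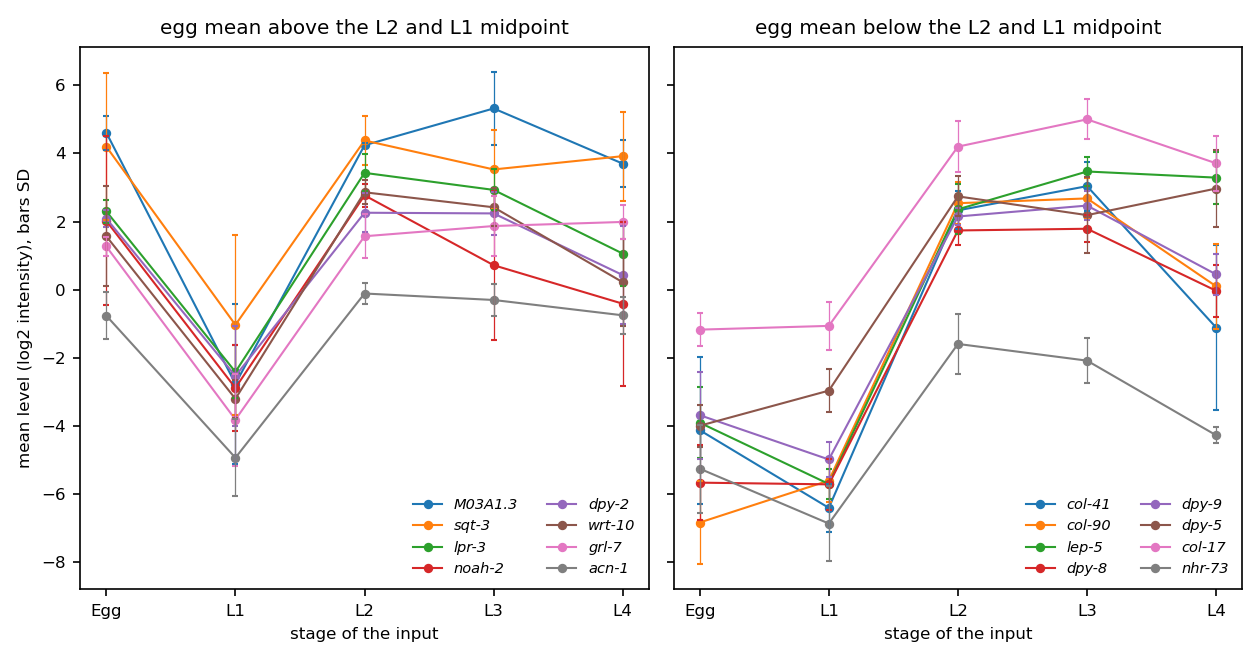
Mean level by stage of the inputs (vertical axis, log2 intensity, bars SD; 4 inputs in Egg, L1 and L3, 3 in L2 and L4) of 16 genes called higher in L2, split by whether the egg mean lies above (left) or below (right) the midpoint of L2 and L1. On the left, levels drop at L1 between high values in eggs and in L2. On the right, eggs and L1 are both low, and the rise falls between L1 and L2.

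The immunoprecipitates of the same lysates give a second reading of these genes on other array channels, although not from other animals. Of the 252 risers with values in both stages, 249 were also higher in the L2 than in the L1 immunoprecipitates, and 26 of 26 fallers were lower, where 44.6% of the 14244 named genes with such values were higher in L2. A lysate's mRNA supply and its binding to AIN-2 both enter that reading.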

How the data were processed

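Intensities were read from 36 single-channel columns of spotted long-oligonucleotide arrays (23232 spots), 1 per RNA sample and dye. Per the labels' protocols, total RNA was extracted with Trizol from a portion of each lysate, amplified once and labelled with Cy3 or Cy5. The intensity values deposited by the authors reach below 0, as background-subtracted signals can. The scanner, software, scaling and genome build are not given in the sources used here. Probes were named through the platform annotation: 17461 carried 1 gene symbol, 0 several and 5771 none, and 17371 matched a RefSeq gene by identifier.

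Values of 0 or less were set to missing, and log2 intensities of the 36 columns were quantile normalized. Probes of a gene were averaged (880 genes had 2 or more). limma 3.58.1 in R 4.3.3 (lmFit and eBayes with an intensity trend) was fitted to the 18 inputs with terms for stage and dye, since all stages then share 1 estimate of spread. The L2 minus L1 coefficient was tested for the 20062 features with at least 2 values in each stage (15115 named genes and 4947 unnamed probes), with Benjamini-Hochberg adjustment over all of them. SE is that of the fit. Noise of a column was the root mean square of its negative values. For a gene below background in a whole stage, the bound set the mean of the other stage against, per array, the higher of the lowest signal above background and the gene's own value. Tables and figures were made with Python 3.11.15 and matplotlib 3.10.9, and the fit was tested on simulated data.

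The members and lists were chosen with earlier results of these data known. The text names the 10 largest calls in each direction whose groups did not overlap and that were above background throughout the higher stage, the 5 largest bounds in each direction, and from 50 symbol-based lists up to 5 called members and those with a known role in the passage from L1 to L2; the heterochronic, insulin-like, molting, body shape, germ line and cell cycle lists could be named in full. ptr-4, ptr-23, grl-22, dlg-1, rnt-1, rpl-41.1, lpr-3, the uncalled collagen processing genes, the named markers of other stages, the ends of a range and the genes of the closing observations were chosen after their values were seen. Lists not described in the text had few calls. Of 195 C-type lectins 3 rose (1.54%, beside 1.69% of all named genes), and of 46 epidermal antimicrobial peptides 2 rose (4.35%). Of 163 detoxification genes (cytochrome P450, UDP-glucuronosyl- and glutathione transferases) 2 rose (1.23%) and 1 fell, where 0.192% of all named genes did. 1 member rose among 1006 chemoreceptors (0.0994%), 62 oxidative phosphorylation genes (1.61%), 34 translation factors (2.94%) and 89 transmitter receptors (1.12%). No member was called among mitochondrial ribosomal proteins, aminoacyl-tRNA synthetases, glycolysis, TCA cycle, vacuolar ATPase, sperm, spermatogenesis, vitellogenin, embryonic, heat shock, neuronal secretion, vulva and gonad, F-box, innexin and actin and tubulin genes.

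Alternatives covered scaling, treatment of low values, the samples and terms in the fit, each dye alone and each replicate left out. After the data were seen, the counts of calls under them were changed from named genes to named genes and unnamed probes together. Replicates were grown independently, so p-values refer to the spread between cultures.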

Additional observations from a re-analysis of the deposited data

Results flagged for a closer look

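For each gene named in the text with a value in all 4 L1 inputs, the L1 inputs were searched for 1 value that stood apart from the other 3 by more than Dixon's 95% criterion allows. Chance gives about 1 such value in 20 groups. The criterion was met for 9 of the 136 genes searched (6.62%), close to that share. rpl-41.1 had 4.57 in L1 replicate 2, beside -4.74 to -4.21 in the other L1 inputs. acdh-8 had -7.98 and his-64 -2.77 in L1 replicate 2, both lower than the other L1 inputs, and srh-100, which was below background in every L2 and L1 input, had -6.60 there. nlp-7 had -2.74 in L1 replicate 5, beside -1.99 to -1.93 in the others. In L1 replicate 11, dhs-28 had -1.44 and lep-2 had -7.47, both below the other L1 inputs, and bli-6 had -3.53 and vit-4, an adult marker, -3.19, both above them. Among the called genes of these, acdh-8, dhs-28, his-64 and nlp-7, no L2 value overlapped the L1 values. The L2 group has 3 inputs and was not searched.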

How the results depend on the processing

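The genes called higher (255) and lower (29) kept their direction under every alternative that gave them a value, but the number of calls did not hold. Over named genes and unnamed probes together, 290 features were called higher and 38 lower. On the deposited scale the counts were 152 and 67, with arrays centred on their medians 409 and 16, with low values set to a floor 251 and 66, with an offset of 0.1 added 241 and 110, and with quantile normalization on the linear scale 267 and 68. Among named genes, higher calls were 69.5% of all calls with the offset, 69.8% in the fit to the L2 and L1 inputs, 67.6% within Cy5 and 79.5% within Cy3. The fit to the L2 and L1 inputs alone called 474 and 198 features. Inputs titled "tot" alone, with 1 L1 input assumed to vary like the other stages, gave 87 and 10, with 67 of the 290 and 0 of the 38 still called. It left out L1 replicates 5, 10 and 11, titled "Tot". Within Cy3, with 1 L2 input likewise, the counts were 67 and 21, with 39 and 1 still called, and within Cy5 699 and 333, with 246 and 19. Leaving out 1 input gave 138 to 238 higher and 5 to 30 lower calls. Some of these fits also held fewer samples. The causes of the changed counts were not tested. Fits without the dye term, with the brightest probe, without dim genes, with robust moderation, without the intensity trend, with named genes only or with quantile normalization of the 18 inputs stayed within 1.5 times both counts.

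The median difference of all named genes was 0.08, and -0.33 on the deposited scale, 0.52 centred, -0.18 with the floor and -0.05 on the linear scale. No called gene named here changed sign. Of the 94 called genes named, 53 were called in each fit without 1 input that could test them and 41 were lost in at least 1. No paired analysis was possible because the L2 and L1 inputs share a single replicate number. Spots of 0 or less, 5.75% to 12.7% of an L2 input and 11.1% to 16.5% of an L1 input, have no log2 value, which limits what can be said of dim genes.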

Other observations

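Other gene families with high shares of risers, beside 1.69% of all named genes, came to notice after their values were seen. Of 7 tested lpr genes, which encode lipocalins, several of them known from the apical matrix of the epidermis and of ducts, 5 rose and 0 fell. lpr-3 had 3.13, 3.10 and 4.06 in L2, against -3.19, -2.98, -1.64 and -1.85 in L1 (log2 intensity), and rose by 5.84 ± 0.48 (SE of limma's fit, adjusted p = 9.41e-07). lpr-5 rose by 5.36 ± 0.89, lpr-6 by 4.32 ± 0.53, lpr-1 by 3.58 ± 0.69 and lpr-4 by 3.47 ± 0.34. The egg mean of all 5 lay nearer to L2 than to L1. Of 9 tested nspc genes, which encode small peptides, 6 rose, and in these 6 the egg mean lay nearer to L1. nspc-10 had 1.13, 0.81 and 1.08 in L2, against -3.60, -2.99, -3.94 and -2.51 in L1, and an egg mean of -6.16. nspc-16 and nspc-18 were far above their egg means of -3.80 and -4.52 in both larval stages and differed by 0.21 ± 0.43 and 0.47 ± 0.45. nspc genes are similar in sequence, so one oligonucleotide may read several of them. rml-3, rml-4 and rml-5 rose by 6.99 ± 0.66, 5.04 ± 0.66 and 4.29 ± 0.60, and they are all the rml genes tested.

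The fibrous organelle anchors the epidermis to the cuticle, and both of its large apical receptors were called, in opposite directions. mua-3 had 0.43, 0.33 and 0.86 in L2, against -1.89, -1.03, -1.50 and -1.16 in L1, a difference of 1.93 ± 0.39 (adjusted p = 0.0128). mup-4 had 1.31, 0.54 and 1.20 in L2, against 1.73, 2.65, 2.67 and 1.92 in L1, a difference of -1.30 ± 0.26 (adjusted p = 0.0115). cuti-1 rose by 5.95 ± 0.51, with 2 L1 inputs above background. mua-3 kept its direction in all 23 alternatives, at 1.59 to 2.49, and its call in 19 of them, among those without 1 input all but the one without L2 replicate 3. mup-4 kept its direction in all 23, at -1.54 to -0.69, and its call in 16. It was not called without L1 replicate 5, L1 replicate 10 or L2 replicate 2, nor with arrays centred on their medians, where its difference was -0.69.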
